A study of Mus musculus with 6 samples.

Results

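The cells described here are non-cycling epithelial cells rich in Retnla, compared between the second and the third of the 3 library tokens that prefix the deposited barcodes, numbered by first appearance. A cell was a member if Retnla made up at least 0.5% of its unique molecular identifiers (UMIs, each standing for 1 captured transcript), if it held at least 1000 UMIs and if it had no UMI of the cell cycle genes Mki67, Top2a, Cdk1 and Ccnb1. The rule gave 2064 cells of the second library and 5900 of the third, together 7964 of 36584 barcodes, and 7 cells of the first library. The members were thus chosen by their Retnla level, and the genes Chil4, Scgb1a1, Slc2a3 and Dlk1 were named for this comparison because earlier results of these data showed them, so their values are descriptions.

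The series followed mouse lung alveolar type II (ATII) cells of genotype IL4Ra WT (wild type for the interleukin 4 receptor alpha chain). The labels give a day 0 sort from mice of both ages, young and old, a day 13 culture from both ages and a day 13 culture from young mice alone, each as 1 expression library and 1 library of multiplexing tags, with the treatment given as a mixed sample. Cultured cells formed alveolarspheres without serum or feeder cells and received cytokine at 10 ng/ml, or PBS, from day 3; the title names IL-4 and the design text another interleukin number. The tokens match no label and no tag is among the matrix features, so the day, age, treatment and mouse of every cell below are unknown, and neither the exact ages nor the number of pooled mice is in the labels. A difference between the second and the third library therefore compares those 2 libraries and cannot be told apart from any of these factors, from the libraries' preparation or from their depth.

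Retnla encodes RELM-alpha, a small secreted cysteine-rich protein. Together with the chitinase-like proteins Chil3 and Chil4 (Ym1 and Ym2) it is a classical marker of type 2 immunity: IL-4 and IL-13 bind a receptor that contains the IL-4 receptor alpha chain, Janus kinases phosphorylate STAT6, and STAT6 dimers bind palindromic sites in target genes. In the lung these proteins come from macrophages and from epithelium. ATII cells make surfactant, and they can divide and give rise to the flat alveolar type I (ATI) cells of gas exchange.

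The stretches upstream of Retnla and of its partner Chil4 are shown because both genes define the pattern below, and that of Chil3 because it is the closest relative of Chil4 and was almost silent. Each is the 250 bases before the RefSeq start (GRCm38.p6), 5′ to 3′ on the gene's strand, at chr16:48842359-48842608 on the plus strand for Retnla, chr3:106219480-106219729 on the minus strand for Chil4 and chr3:106167565-106167814 on the minus strand for Chil3. Capitals mark TTCNNNNGAA, the spacing that STAT6 prefers, or TTCNNNGAA, the spacing common to other STAT proteins. Both motifs read the same on either strand.
Retnla: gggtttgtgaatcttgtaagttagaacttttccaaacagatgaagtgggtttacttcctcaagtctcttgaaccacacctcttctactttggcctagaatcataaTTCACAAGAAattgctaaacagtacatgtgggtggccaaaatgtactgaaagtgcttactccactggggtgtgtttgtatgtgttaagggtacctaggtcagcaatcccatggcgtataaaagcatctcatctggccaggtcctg
Chil4: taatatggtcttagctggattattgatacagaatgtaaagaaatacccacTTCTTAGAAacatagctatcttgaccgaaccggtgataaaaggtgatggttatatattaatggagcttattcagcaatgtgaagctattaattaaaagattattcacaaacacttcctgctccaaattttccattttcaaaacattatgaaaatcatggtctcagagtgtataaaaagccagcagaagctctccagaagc
Chil3: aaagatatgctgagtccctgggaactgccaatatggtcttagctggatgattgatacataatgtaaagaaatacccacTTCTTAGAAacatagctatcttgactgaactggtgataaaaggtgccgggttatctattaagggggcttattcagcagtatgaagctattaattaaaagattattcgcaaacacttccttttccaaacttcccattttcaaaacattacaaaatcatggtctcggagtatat

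The Retnla stretch held TTCACAAGAA, which begins 145 bases before the start, and no TTCNNNGAA. Chil4 and Chil3 each held TTCTTAGAA, 200 and 172 bases before their starts, and no TTCNNNNGAA. Of all 32851 RefSeq stretches of this length, 5.85% held TTCNNNNGAA and 7.02% held TTCNNNGAA. The Chil4 and Chil3 stretches matched at 201 of their aligned bases and mismatched at 20, with 58 gap positions. Neither motif was in the stretches of Chia1 and Dlk1. These are matches of letters and say nothing of binding.

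Members were common in both libraries, but their Retnla level was not the same. They were 36.9% of the 5593 cells with at least 1000 UMIs in the second library (exact binomial 95% interval 35.6 to 38.2%) and 40.4% of 14594 in the third (39.6 to 41.2%). Of the non-cycling cells alone they were 56.4% and 53%. Unthinned, the order thus depended on the denominator: 34.6% of cells in the second library and 23.7% in the third had a UMI of the 4 cell cycle genes. Members had a median of 8650 UMIs in the second library and 3275 in the third, and summed to 18371066 and 20248852 UMIs. Of the barcode sequences 22 occur in both libraries, 3 of them as members of each, and doublets were not called. When every cell was thinned to 1500 UMIs and the rule applied anew, 2713 and 6544 cells were members. They were 48.6% and 45.8% of the cells deep enough, and 57.4% and 54.6% of those non-cycling after thinning. Of the thinned members, 674 and 725 had a UMI of the 4 cell cycle genes before thinning, and 1975 and 5790 were also members unthinned. Thinned members, here and below, are thus not the same set of cells.

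Retnla made up a median of 1.41% of a member's UMIs in the second library (quartiles 0.923 and 2.27%) and 3.79% in the third (2.45 and 5.25%). Of the third library's members 45.6% lay at 4% or above, against 5.52% in the second. Summed over members, Retnla (chromosome 16, 48842551 to 48844461, GRCm38) reached 17731 UMIs per 1000000 UMIs (CPM) in the second library and 40329 CPM in the third. Outside the members the order was the other way, 1360 and 372 CPM. The third library's cells fell into a low and a high mode with few between, whereas the second library's spread through the threshold: 14.9% of its non-cycling cells had a share from 0.1 to 0.5%, against 3.99% in the third.

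**Figure D1:**
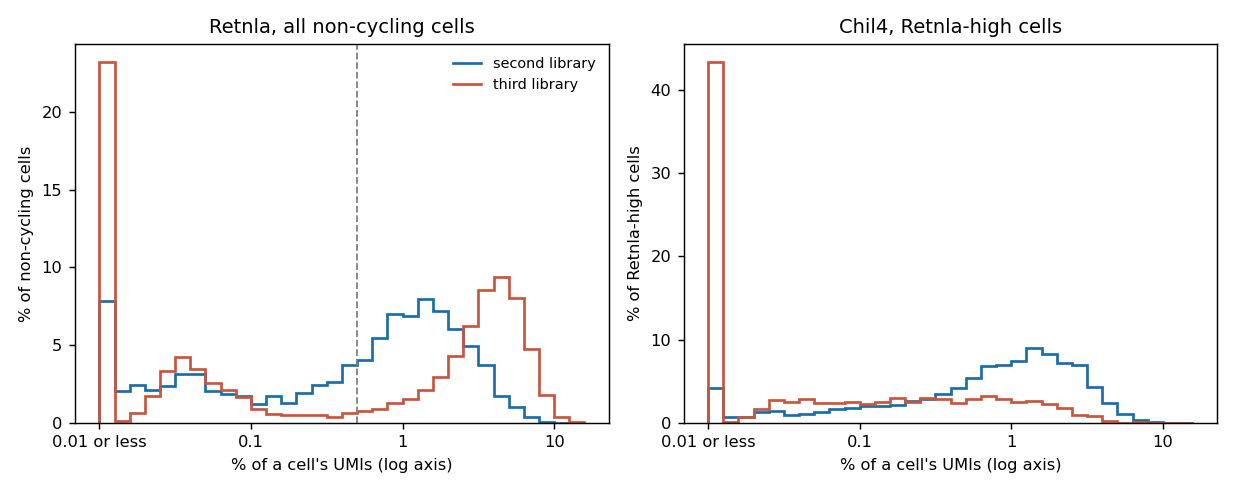
Share of cells (vertical axis, percent) by the percent of a cell's UMIs from Retnla in all non-cycling cells (left, dashed line at the 0.5% threshold) and from Chil4 in Retnla-high cells (right), on log axes, for the second (blue) and the third (red) library. The lowest bin holds all cells at 0.01% or less; Retnla is shifted to higher shares in the third library's high mode and Chil4 to higher shares in the second library.

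The members carried ATII transcripts in both libraries. All 16 ATII markers reached 20 CPM in both, and they summed to 187558 CPM in the second library and 164735 CPM in the third. Sftpc, surfactant protein C, was at 145537 and 130683 CPM and had a UMI in 100% of members of each. Macrophage genes, the other common source of Retnla and Chil3, were near absent: Adgre1, Marco, Siglecf, C1qa, C1qb and C1qc had 0 UMIs in members of both libraries, and the leukocyte gene Ptprc had 0 UMIs in 7964 members. The 4 genes named for the comparison did not mark the members alike. Chil4 and Retnla were shared by both libraries, Slc2a3 was near 0 in the third, Dlk1 was near 0 in the second, and Scgb1a1 was low in both.

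Apart from Retnla, which the rule used, Chil4 was the most abundant gene past 2-fold (a lectin of the chitinase family without chitin-cutting activity, chromosome 3, 106201490 to 106219507, minus strand). It stood at 12852 CPM in the second library's members and 3550 CPM in the third's, a log2 fold of 1.86 (exact conditional 95% interval of the ratio, which like all intervals here covers counting error only, 1.84 to 1.87). The order is opposite to that of Retnla. Per cell, Chil4 made up a median of 0.901% of UMIs in the second library and 0.0367% in the third. Chil4 UMIs outnumbered Retnla UMIs in 32.4% of the second library's members (exact interval 30.4 to 34.5%) and in 0.881% of the third's (0.659 to 1.15%).

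At matched Retnla the difference remained. Among members with 0.5 to 1% Retnla, Chil4 was at 10759 CPM in the second library (606 cells) and 1760 CPM in the third (332 cells). At 4% Retnla and above it was at 20677 CPM (114 cells) and 5014 CPM (2693 cells). The threshold made no step in this: just outside it, at 0.4 to 0.5% Retnla, the values were 10138 CPM (129 cells) and 1229 CPM (67 cells), and just inside, at 0.5 to 0.6%, 10056 CPM (113 cells) and 1777 CPM (65 cells). In cells with the least Retnla, under 0.05%, Chil4 was at 631 and 28.8 CPM, while Retnla there was at 192 and 125 CPM. In the first library, where 4.17% of non-cycling cells had a Retnla UMI, Chil4 was at 0.111 CPM.

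After thinning to 1500 UMIs Chil4 kept its values, 12266 and 3434 CPM, and was detected in 89.8% and 48.9% of members. Unthinned it was detected in 97.6% and 56.7%. Among thinned cells below the Retnla share it was detected in 51.6% of the second library and 5.79% of the third. Unthinned, 6 of all 16180 non-cycling cells of the first library had a Chil4 UMI, 0.0371% (exact interval 0.0136 to 0.0807%). Whether free RNA in the droplets contributed was not tested.

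Of the abundant genes of the family, only Chil4 was past 2-fold. Chil1, the chitinase-like protein also called BRP-39, was at 8287 and 7829 CPM, and the active chitinase Chia1 at 1419 and 1665 CPM. Chil3 was scarce, at 4.52 and 1.38 CPM, and like Chil4 higher in the second library, where 2.76% of members had a UMI of it against 0.356% in the third. Its transcript is identical to that of Chil4 at 94.4% of aligned bases and at 90.0% over the last 300 bases, so reads can be assigned between these 2 genes only at their differences, and the Chil3 values are uncertain. Among 4 chitinase-family genes with at least 20 CPM, 1 was at least 2-fold higher in the second library and 0 in the third, against 2.86% and 1.96% of all genes tested. That 1 gene is Chil4, which was named for the comparison. Of the other RELM genes, Retnlg was at 16.7 and 21.9 CPM and Retnlb at 0.708 and 1.43 CPM.

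**Figure D2:**
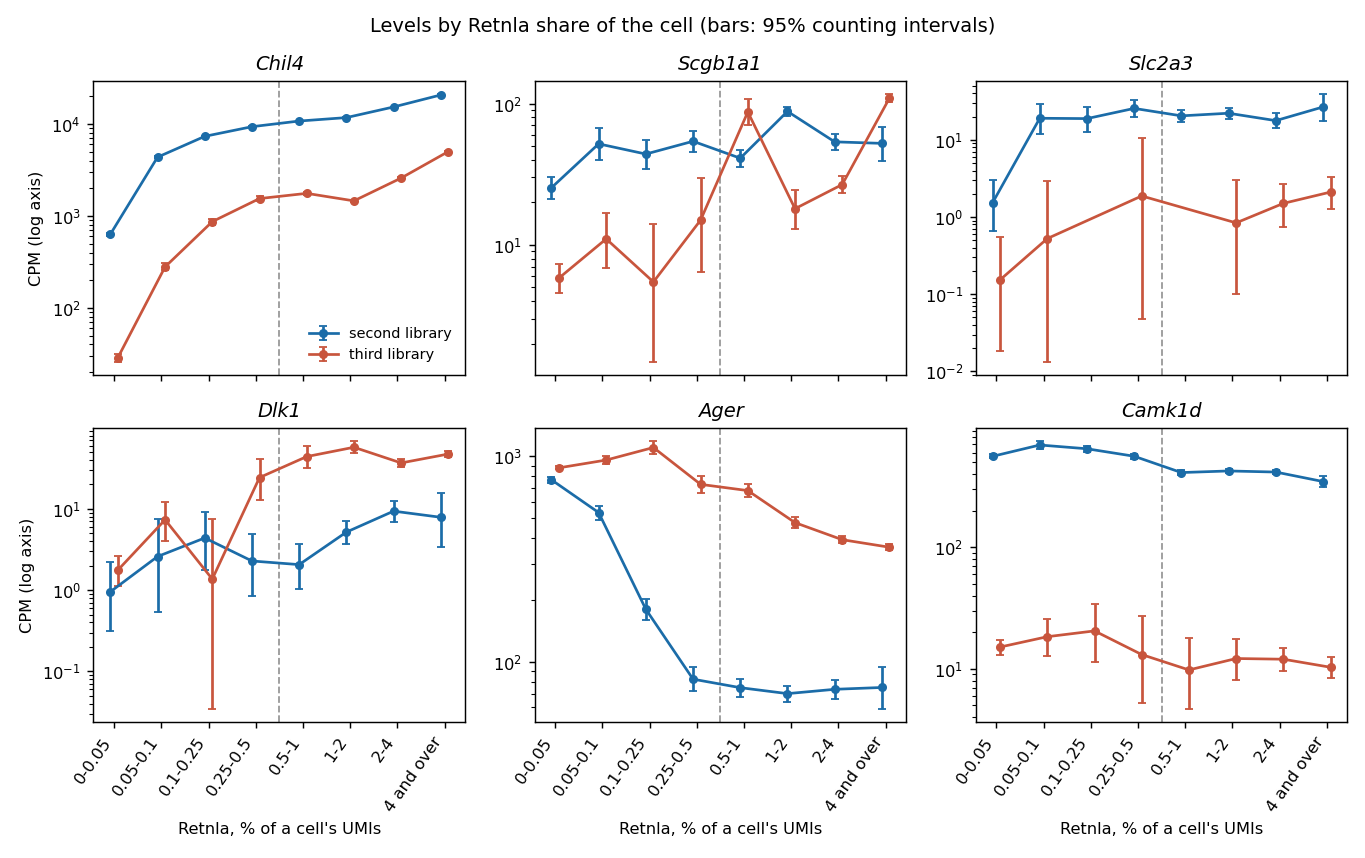
Level of 6 genes (CPM, log axes) in non-cycling cells binned by the percent of their UMIs from Retnla, for the second (blue) and the third (red) library, with exact Poisson 95% intervals as bars. Bins right of the dashed line hold the members, and bins with 0 UMIs (Slc2a3 in the third library at 0.1 to 0.25% and at 0.5 to 1%) have no point. Chil4 and Camk1d are higher in the second library in every bin.

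Slc2a3, the high-affinity glucose transporter GLUT3, was scarce but differed strongly (chromosome 6, 122727809 to 122801640, minus strand). It had 381 UMIs in the second library's members, 20.7 CPM (exact Poisson interval 18.7 to 22.9), and 33 UMIs in the third's, 1.63 CPM (1.12 to 2.29), a log2 fold of 3.05. A UMI was found in 9.21% and 0.492% of members, and in 2.47% and 0.275% after thinning. The related Slc2a1 (GLUT1) was at 37.7 and 27.0 CPM. Slc2a3 was also higher in the second library outside the members, at 12 against 0.247 CPM, and was spread over 190 members with at most 10 UMIs in any of them. Among 25 genes of glucose uptake, glycolysis and hypoxia, 2 were at least 2-fold higher in the second library (2.86% of all genes tested). They were Slc2a3 itself, which was named for the comparison, and Ero1l, at 129 and 61.4 CPM. In the third library 1 was higher (1.96%), the glycolytic enzyme Eno1. The list median log2 fold was 0.20 against 0.00 over all 4544 genes.

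Dlk1 was the mirror image (chromosome 12, 109452823 to 109463336, plus strand). It encodes a membrane protein of the Notch ligand family and is expressed from the paternal chromosome. Members held 101 UMIs in the second library, 5.5 CPM (4.48 to 6.68), and 903 UMIs in the third, 44.6 CPM (41.7 to 47.6), a log2 fold of -2.81. Dlk1 was confined to few members, 1.26% of the second library and 4.54% of the third, or 0.479% and 3.35% after thinning. In the second library 83.2% of its UMIs came from 10 cells, in the third 18.4%. Outside the members it was at 1.98 and 3.15 CPM, so in both libraries Dlk1 was higher in Retnla-high cells than in the others. Without the 10 members richest in Dlk1 in each library, the members' levels were 0.93 and 36.5 CPM. The order in the second library thus rests on those 10 cells.

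The third library's 268 members with a Dlk1 UMI had a median of 3635 UMIs, against 3262 in the 5632 without. Their Retnla and Chil4 levels lay close to those of the others, 39203 against 40388 CPM and 3672 against 3544 CPM. Ager, an ATI marker, was at 178 against 414 CPM, and Meg3 at 423 against 234 CPM. Meg3 and Rian, noncoding RNAs of the same imprinted cluster made from the maternal chromosome, did not follow Dlk1 across libraries: Meg3 was at 372 and 243 CPM and Rian at 46.3 and 38.0 CPM in the second and the third library. Of 6 imprinted genes with at least 20 CPM, 2 were at least 2-fold higher in the third library, against 1.96% of all genes tested: Dlk1, which was named for the comparison, and Nnat, a small membrane proteolipid on another chromosome, at 20.8 and 99.4 CPM. In cells of 4000 to 8000 UMIs, where the libraries' depths are closer, the log2 fold of Nnat was -0.91.

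Scgb1a1, the secretoglobin of airway club cells, gave no stable difference (chromosome 19, 9083636 to 9087958, minus strand). It was at 63.6 CPM (59.98 to 67.3) and 67.5 CPM (63.9 to 71.1), a log2 fold of -0.08 that became 0.81 after thinning. These sums rest on few cells: 10 cells held 49.7% of its UMIs in the second library and 57.8% in the third, and without those 10 the levels were 32.1 and 28.5 CPM. Outside the members it was at 38.1 and 6.73 CPM. In the first library Scgb1a1 was at 2509 CPM, with a UMI in 69.5% of non-cycling cells, against 9.35% and 3.69% of members. Scgb3a1, another secretoglobin, was as concentrated, with 38.2% and 54.8% of its UMIs in 10 cells.

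Across all genes the libraries differed modestly. Of 4544 genes with at least 20 CPM in members of either library, 219 differed at least 2-fold (4.82%), 130 of them higher in the second library (2.86%) and 89 higher in the third (1.96%). Folds are log2 of the second over the third library with 1 CPM added to both. With 1 library a side there is no replicate error and no test, so a gene named as 2-fold different has passed a rule of size, not of significance. After thinning, 121 of the 130 and 75 of the 89 were still 2-fold different in the same direction. Without the shared barcodes the numbers were 129 and 90.

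Most of the difference was not particular to the Retnla-high cells. The same libraries were compared in their 1595 and 5233 non-cycling cells below the threshold. There 126 of 4670 genes were 2-fold higher in the second library (2.7%) and 59 in the third (1.26%), together 3.96%. Of the members' 130 genes, 90 (69.2%) were 2-fold higher there too, which is 71.4% of those 126. Of the 89, 42 (47.2%) were shared, 71.2% of those 59. In those cells 0 of the 130 had the opposite sign, and of the 89 the chromatin gene Smarcd3 and the stress gene Gadd45b did, at 0.01 and 0.11 on the log2 scale. Among genes with at least 50 CPM other than Retnla, Chia1, Chil4 and Rgs4, a regulator of G protein signalling, differed most between members and other cells. Their log2 folds were -0.23, 1.86 and 0.21 in members and 3.66, 4.84 and 3.02 in the other cells, where the second library exceeded the third.

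**Figure D3:**
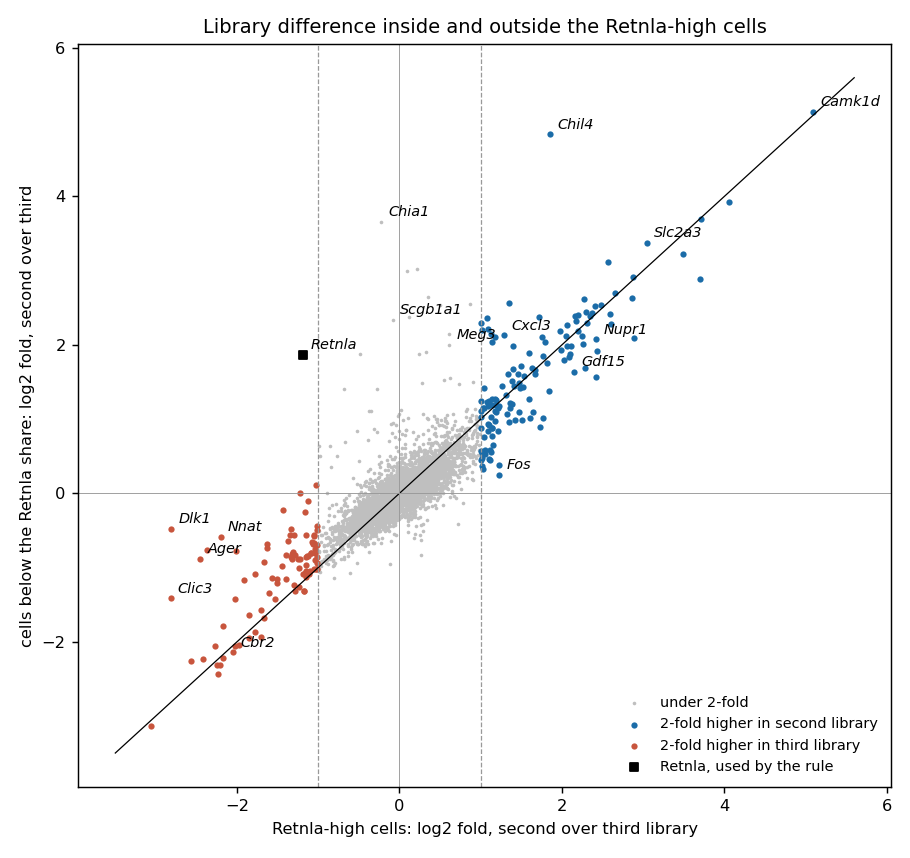
Log2 fold of the second over the third library in Retnla-high cells (horizontal axis) and in non-cycling cells below the Retnla share (vertical axis) for 4544 genes, with the line of equality. Blue and red points are the 130 and 89 genes past 2-fold in members and the black square is Retnla; Camk1d sits on the line, Chil4 and Chia1 far above it.

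Camk1d, a calcium-dependent protein kinase, had the largest fold of all named genes. It was at 414 CPM in the second library's members and 11.1 CPM in the third's, a log2 fold of 5.10, and at 587 and 15.7 CPM in the other cells, a log2 fold of 5.14. It was detected in 93.6% of members in the second library and 3.71% in the third. Gm42418, an annotated RNA that overlaps a ribosomal RNA repeat, was at 3986 and 768 CPM, and the mitochondrial leucyl-tRNA synthetase Lars2 at 70.7 and 10.9 CPM. Cox6a2, a heart and muscle subunit of cytochrome oxidase, was at 55.7 and 4.05 CPM. The first library was nearer the second for each of these, with 247 CPM of Camk1d, 4899 of Gm42418, 113 of Lars2 and 189 of Cox6a2. Over all 2-fold genes this was not so in general: the first library was nearer the second for 49 of the 130 genes higher in the second and for 57 of the 89 higher in the third.

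Copies of abundant genes made up part of the difference. Pseudogenes were 9.23% of the 130 genes higher in the second library and 23.6% of the 89 higher in the third, but 1.32% of all genes tested. Rps2-ps10 was at 68.0 and 11.4 CPM while its parent Rps2, a ribosomal protein, was at 7191 and 6361 CPM. Ftl1-ps1 was at 160 and 11.3 CPM with Ftl1, the ferritin light chain, at 9374 and 4983 CPM. For each of 25 parent genes, the copy with the largest fold among those at 20 CPM or more was taken. Of these copies 16 differed 2-fold, against 4.82% of all genes tested, but each was picked as the most extreme of its parent. The parent was under 2-fold for 15 of the 16. The parent and copies summed gave the same 15, since the parent is far more abundant and sets the sum. Reads can be divided between near-identical copies, so all these values are uncertain. Whether such division made the differences was not tested. Rpl10 was the exception, at 790 and 2510 CPM, with a log2 fold of -1.59 when its copies were added. Another ribosomal protein gene, Rpl35, was at 456 and 1792 CPM, and Gpx4, which reduces lipid peroxides, at 142 and 515 CPM.

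Part of the integrated stress response was higher in the second library's members. Of 13 genes of this ATF4-driven program of amino acid shortage and stalled translation, 5 were at least 2-fold higher there and 0 in the third, against 2.86% and 1.96% of all genes tested, with a median log2 fold of 0.58. Nupr1, a small stress-induced chromatin protein, was at 3237 and 603 CPM and was detected in 90.3% and 46.2% of thinned members. The pseudokinase Trib3 was at 26.9 and 6.91 CPM, the cystine transporter Slc7a11 at 53.2 and 16.3 CPM, and the transcription factor Ddit3 (CHOP) at 71.7 and 26.0 CPM. Asns, asparagine synthetase, was at 117 and 56.3 CPM. Atf4 itself was at 101 and 101 CPM. Among members with at least 2% Retnla the log2 folds of Trib3, Ddit3 and Slc7a11 were 0.50, 0.52 and 0.82, under 2-fold. The cells below the threshold gave 4 of these genes 2-fold higher in the second library.

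Chaperone and heat shock genes did not reach 2-fold, and other stress lists held few genes that did. Among 16 chaperones and genes of the unfolded protein response of the endoplasmic reticulum the count was 0, with Hspa5 (BiP) at 419 and 446 CPM, and among 8 heat shock genes it was 0 too. Of all genes tested 4.82% differed 2-fold, 2.86% higher in the second library and 1.96% in the third. A count of 0 in lists this short is near that share. Gdf15, a stress-induced cytokine, was at 243 and 53.9 CPM, the only 2-fold gene among 10 of the p53 and CDK inhibitor list. Of 15 NRF2 and glutathione genes, 2 were higher in the second library, Slc7a11 and the haem oxygenase Hmox1 at 112 and 55.6 CPM, with 0 higher in the third and a list median log2 fold of 0.46. Immediate early genes gave 2 of 13, Fos at 423 and 180 CPM and Zfp36 at 51.3 and 24.1 CPM. Fos differed less in the other cells, 282 and 236 CPM, a log2 fold of 0.25.

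Mitochondrially encoded genes were higher in the second library for 5 of 11, with a median log2 fold of 0.66 and 0 higher in the third, against 2.86% and 1.96% of all genes tested. The largest were mt-Co2 at 29.3 and 3.11 CPM, mt-Co3 at 39.6 and 6.67 CPM, mt-Atp8 at 88.6 and 17.9 CPM and mt-Atp6 at 59.99 and 13.6 CPM, subunits of cytochrome oxidase and ATP synthase. The summed list was closer, 6437 and 5238 CPM, and mitochondrial genes made up a median of 0.852% and 0.643% of a member's UMIs. In the cells below the Retnla share, 4 of the mitochondrially encoded genes were 2-fold higher in the second library. None of 22 nuclear-encoded respiratory chain genes reached 2-fold in members. Of all genes tested 4.82% did, so a count of 0 in a list this short is near that share.

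**Figure D4:**
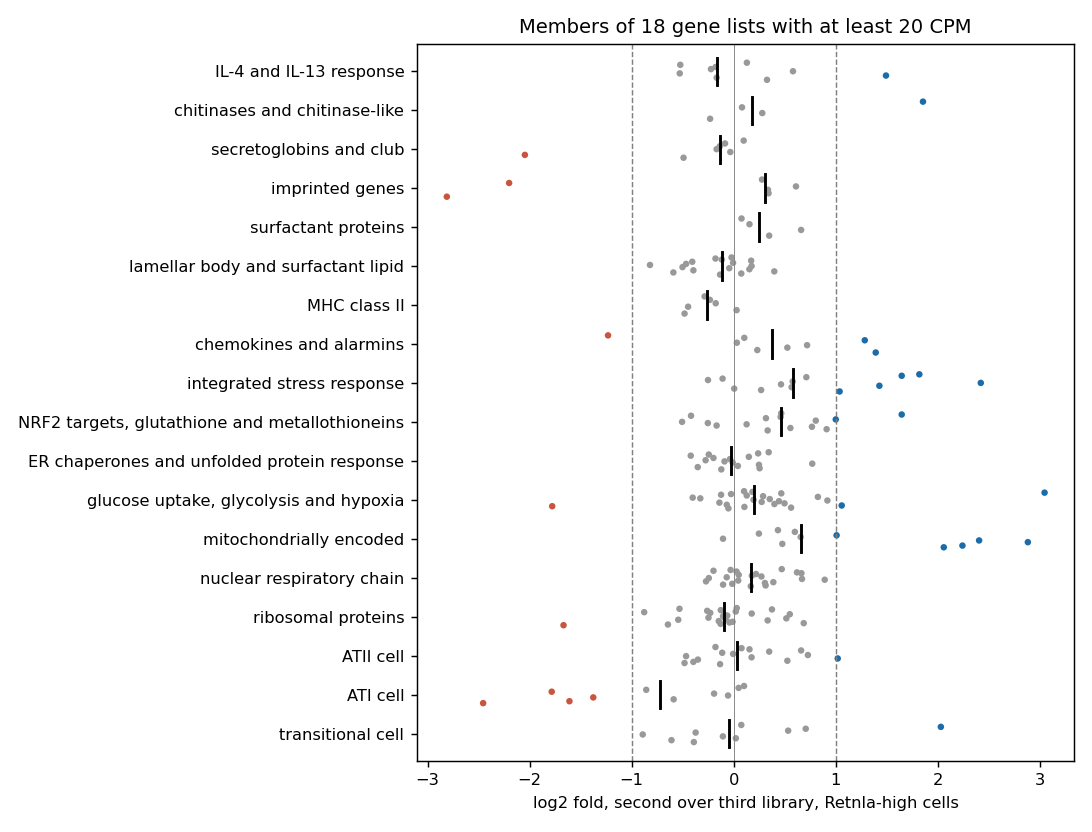
Log2 fold of the second over the third library in Retnla-high cells for each gene with at least 20 CPM (points) in 18 lists, with the list median as a black bar and dashed lines at 2-fold. Blue points are at least 2-fold higher in the second library and red points in the third; the list medians are 0.58 for the integrated stress response, 0.66 for mitochondrially encoded genes and -0.72 for ATI markers.

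Secreted immune factors split. The neutrophil chemokine Cxcl3 was at 769 and 315 CPM, detected in 49.8% and 23.6% of thinned members, and Ccl20, which attracts cells through CCR6, at 25.1 and 8.94 CPM. Il33, the nuclear alarmin that drives type 2 responses, was higher in the third library, at 117 and 276 CPM. It was detected in 14.5% and 26.4% of thinned members. The log2 fold of Cxcl3 was 0.20 in cells of 4000 to 8000 UMIs, and that of Il33 -0.69 among members with at least 2% Retnla. Of 8 chemokines and alarmins, 2 were thus higher in the second library and 1 in the third, against 2.86% and 1.96% of all genes tested. The other 5 did not reach 2-fold, among them Cxcl15 at 15443 and 10721 CPM and Cxcl5 at 1155 and 1074 CPM. Complement C3 was at 142 and 64.3 CPM.

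Other known targets and components of IL-4 and IL-13 signalling were alike or scarce. Of 9 with at least 20 CPM, 1 was 2-fold higher in the second library and 0 in the third, against 2.86% and 1.96% of all genes tested. It was the amino acid oxidase Il4i1 at 59.9 and 20.6 CPM (a log2 fold of 0.49 in cells of 4000 to 8000 UMIs). The list median log2 fold was -0.17. The receptor chain Il4ra was at 14 and 20.7 CPM and Stat6 at 9.53 and 7.51 CPM. The feedback inhibitor Socs2 was at 220 and 201 CPM, the anion exchanger Slc26a4 at 147 and 212 CPM and the histamine-forming enzyme Hdc at 113 and 127 CPM. Arg1, an IL-4 target of macrophages, was at 0.653 and 1.48 CPM, and 10 of the 30 genes, Ccl11, Ccl24 and Clca1 among them, had 0 UMIs in members of each library.

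Some genes of the ATI fate were lower in the second library. Of 10 ATI markers with at least 20 CPM, 4 were at least 2-fold higher in the third and 0 in the second, against 1.96% and 2.86% of all genes tested, with a median log2 fold of -0.72. Ager, the receptor RAGE, was at 72.5 and 402 CPM and was detected in 10.2% and 33.2% of thinned members. The homeobox cofactor Hopx was at 18.2 and 65.2 CPM, the anchoring protein Akap5 at 9.53 and 31.1 CPM and the tight junction protein Cldn18 at 62.8 and 164 CPM. In cells of 4000 to 8000 UMIs these 3 were under 2-fold, with log2 folds of -0.11, -0.13 and -0.49. Clic3, a chloride channel protein outside the list, was at 16.3 and 121 CPM. Over 19 alternative settings the log2 fold of Ager ranged from -2.69 to -1.07 and that of Clic3 from -3.02 to -1.53. Both stayed past 2-fold, but their size depended on the setting. The water channel Aqp5 was at 736 and 1107 CPM, while Clic5, Vegfa, Emp2 and Timp3 had log2 folds between -0.19 and 0.10.

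Ager also varied with Retnla within each library. In the second it was at 769 CPM in cells under 0.05% Retnla and between 69.9 and 74.9 CPM in the 4 bins at 0.5% and above. In the third it was at 879 CPM under 0.05% Retnla, 681 CPM at 0.5 to 1% and 361 CPM at 4% and above. Summed over the members the log2 fold was -2.46 and over the cells outside -0.88, but the outside sum is mostly of cells under 0.05% Retnla, where it was -0.19. At 0.1 to 0.25% and 0.25 to 0.5% Retnla, still outside the members, it was -2.61 and -3.13, and in the 4 bins of members it lay between -3.17 and -2.25.

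Most genes of surfactant and other ATII functions were under 2-fold. None of the 4 surfactant proteins, 17 lamellar body and surfactant lipid genes, 6 MHC class II genes and 16 cholesterol synthesis genes reached 2-fold. Of all genes tested 4.82% differed 2-fold either way, so finding none in lists this short is near that share and does not set these functions apart. Sftpb was at 3326 and 2103 CPM, the aspartic protease Napsa at 985 and 989 CPM and the invariant chain Cd74 at 1967 and 2746 CPM. Outside these lists the surfactant-associated protein Sfta2 was higher in the third library, at 115 and 433 CPM, with a log2 fold of -0.85 in cells of 4000 to 8000 UMIs. Of the 16 ATII markers the complement component Hc was the only one past 2-fold, at 45.4 and 21.9 CPM. Among lung lineage factors, Foxp2 was at 61.1 and 139 CPM and Rbpjl at 62.7 and 128 CPM, both higher in the third library, and Cebpd was at 110 and 53.4 CPM. Nkx2-1, the master factor of lung epithelium, was at 145 and 254 CPM, under 2-fold.

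Markers of other cell types were mostly under 20 CPM. Of the 10 transitional-state markers that reached 20 CPM, 1 was 2-fold higher in the second library, against 2.86% of all genes tested. It was Sprr1a, at 24.3 and 5.19 CPM. Cbr2, a carbonyl reductase of club cells, was higher in the third, at 29.4 and 125 CPM, against 2761 CPM in the first library; in cells of 4000 to 8000 UMIs its log2 fold was -0.28. Of 12 leukocyte genes Ly6c2 alone reached 20 CPM and was 2-fold higher in the second library, at 31.3 and 10.6 CPM, while 7 of the 12 had 0 UMIs in members of each library. The whole macrophage list of 16 genes summed to 112 and 66.9 CPM, nearly all of it Lyz2, which ATII cells also express, at 97.8 and 58.7 CPM. Ciliated, basal, fibroblast, endothelial, neuroendocrine and erythroid lists had 0 genes at 20 CPM. Proliferation genes with residual counts were higher in the third library, Birc5 at 4.90 and 22.8 CPM, Ube2c at 18.5 and 47.2 CPM and Stmn1 at 60.6 and 136 CPM. A cell was removed for a single UMI of 4 cycle genes, and the second library was deeper. After thinning these log2 folds were -0.83, -0.76 and -0.75, under 2-fold. The thinned members include 674 cells of the second library and 725 of the third that had such a UMI before thinning. Whether depth made these differences was not tested.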

How the data were processed

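The file that the authors deposited holds raw UMI counts, whole numbers with no scaling, from 10x droplet libraries. The submitters' processing notes name bcl2fastq and Cell Ranger 6.0.1, with GRCm38 and mm10 as builds. Cell calling and doublet removal are not given in the sources used here. Tag libraries were not used here. The members, gene lists and settings were chosen with earlier results of these data known.

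Symbols and positions came from GENCODE M21, which named 52403 of 52636 IDs; the other 233 held 0.0209% of UMIs and stayed in the totals. Counts were summed over members per library and scaled to CPM. A gene was called 2-fold different where its log2 fold (pseudocount 1 CPM) was 1 or more, or -1 or less, and it had at least 20 CPM in either library. Named genes were the 4 markers, the 12 highest and 12 lowest folds at 50 CPM or more, and up to 4 members of each of 46 lists with the largest 2-fold differences, or the most abundant where none passed. Retnla, Chil3, Chia1, Chil1, Retnlb, Slc2a1, Meg3, Rian, Scgb3a1, Atf4, Rgs4, Arg1, Il4ra, Stat6, Socs2, Slc26a4, Hdc, Aqp5, Cxcl5, Cxcl15, Nkx2-1, Asns, Smarcd3, Gadd45b and the parents of pseudogenes were named outside this rule, after their values were seen. Not every gene that the rule picked is reported here. Intervals are 95% exact Poisson, conditional or Clopper-Pearson intervals and cover counting error only. A count of 0 still has an upper limit above 0. The calculation was tested on simulated counts. Thinning drew 1500 UMIs per cell without replacement (seed 1). TMM factors came from edgeR 4.0.16 (R 4.3.3), sums and intervals from scipy 1.17.1 and numpy 2.4.6 under Python 3.11.15, and plots from matplotlib 3.10.9.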

Additional observations from a re-analysis of the deposited data

How the results depend on the processing

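Each library is the only one of its kind and libraries were not replicated, so values describe these libraries. Depth per cell differed (a median of 8650 against 3275 UMIs per member), which bears on the membership rule and on detection per cell. The UMIs summed over members were closer, 18371066 and 20248852. No paired analysis was possible because the tokens carry no replicate number and each side is 1 library. Under 19 planned settings and 3 chosen after seeing the data, the counts of 130 and 89 genes stayed within 1.5 times with these exceptions. Without a filter on low values they were 340 and 305, and at 50 CPM or more 76 and 42, since more or fewer genes were counted. In cells with 4000 to 8000 UMIs the number higher in the third library was 57; the cause was not tested. Outside the members, the 59 genes higher in the third library became 38 when only cells under 0.1% Retnla were used. Thinning moved the share of members from 36.9% to 48.6% in the second library and from 40.4% to 45.8% in the third.

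Over these settings the log2 fold ranged from 1.56 to 2.43 for Chil4, from 1.96 to 3.43 for Slc2a3 and from -4.15 to -2.11 for Dlk1. For Scgb1a1 it ranged from -1.09 to 1.24. Of 1187 values of called named genes, 70 were under 2-fold. The 1 value of opposite sign was Hmox1, -0.086 with 4 Retnla bins weighted equally. In cells with 4000 to 8000 UMIs the log2 fold was under 2-fold for Hopx (-0.11), Akap5 (-0.13), Ube2c (-0.14), Cxcl3 (0.20), Cbr2 (-0.28), Cldn18 (-0.49), Il4i1 (0.49), Stmn1 (-0.50), Ero1l (0.82), Sfta2 (-0.85), Zfp36 (0.86), Fos, Rasl11a and Nnat (0.91, -0.91 and -0.91) and Ly6c2 (0.99). At 2% Retnla or more it was under 2-fold for Trib3 (0.50), Ddit3 (0.52), Hmox1 (0.66), Il33 (-0.69), Slc7a11 (0.82), Ero1l (0.90), Rbpjl (-0.92) and Cebpd (0.98). Under other settings Neat1, C3, Ccl20, Hc and Birc5 also went under 2-fold.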

Other observations

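Further 2-fold genes lay outside the lists. Hist1h1e and Rasl11a were picked by the rule on the largest folds, and the others named here were chosen after their values were seen. Higher in the second library's members were the polymeric immunoglobulin receptor Pigr (845 and 385 CPM), the complement regulator Cd55 (276 and 115 CPM), the mitochondrial folate enzyme Mthfd2 (60.6 and 16.8 CPM), the phosphatase Dusp4 (51.3 and 9.78 CPM), the decoy receptor Tnfrsf11b (26.9 and 3.70 CPM) and the linker histone Hist1h1e (160 and 29.0 CPM). Cd55 was detected in 30.7% and 14.4% of thinned members. Higher in the third library were the membrane mucin Muc1 (108 and 273 CPM) and the small GTPase Rasl11a (51.1 and 164 CPM), whose log2 fold was -0.91 in cells of 4000 to 8000 UMIs.

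Ribosomal protein genes went both ways at high level. Rpl27 was at 1271 and 459 CPM and Rpl15 at 1147 and 431 CPM, higher in the second library, while Rpl35 and Rpl10 were higher in the third. In cells below the Retnla share their log2 folds were within 0.1 of those in members. Over the 26 ribosomal proteins of the fixed list the median log2 fold was -0.09.

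Transcripts of the mitochondrial ribosome were higher in the second library, mt-Rnr1 at 848 and 324 CPM and mt-Rnr2 at 1459 and 779 CPM.

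The immediate early gene Egr1, under 2-fold in both sets of cells, was at 140 and 116 CPM in members and at 87.6 and 157 CPM in cells below the Retnla share, the second and the third library in turn.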
